A study of Mus musculus with 12 samples.

Results

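The genes described here are 10 feedback targets of mitogen-activated protein (MAP) kinases: the phosphatase genes Dusp1, Dusp4, Dusp5 and Dusp6, the Sprouty genes Spry1, Spry2 and Spry4, the Sprouty-related gene Spred1, and the transcription factor genes Etv4 and Etv5. They were chosen by symbol, and all 10 were found among the 23336 symbols of the count table. RNA was sequenced from B16, an established mouse melanoma line that had carried Cas9 for a short time and was then subcloned. Adar-null cells (Adar sgRNA 1) and control cells (Non-targeting sgRNA 5) were each given interferon-beta (IFNb, 1000 U per mL) or vehicle (buffered saline with albumin) for 36 h, which makes 4 groups of 3 libraries. Adar encodes an enzyme that converts adenosine to inosine in double-stranded RNA. Each genotype rests on a single guide and its subcloned cells, so genotype and subclone cannot be told apart. No label says that replicates are separate cultures, so p-values reflect the spread among these libraries alone, and that spread may be technical. In bulk RNA, fewer cells with a transcript and less transcript per cell cannot be told apart.

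MAP kinases are relays that carry signals from growth factor receptors (the RAS, RAF, MEK and ERK chain) and from stress and cytokines (the p38 and JNK kinases) to the nucleus. Active ERK switches on genes whose products dampen the chain. DUSP phosphatases take the phosphates off the kinases, and Sprouty and SPRED proteins act upstream on receptor and RAS signalling. Etv4 and Etv5, also targets of ERK signalling, encode ETS-type transcription factors. In melanoma, where this chain drives growth, the mRNA levels of such genes are widely used as a readout of ERK signalling.

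Sequence upstream of the start site is shown for the 4 members whose response to IFNb differed between the genotypes (Dusp1, Dusp6, Spry1 and Etv5), since these carry the main result. It is taken from RefSeq annotation of GRCm38.p6, reads 5′ to 3′ on the gene's strand, and stops where an exon of a protein-coding gene begins in GENCODE M21. Capitals mark a match to one of the motifs searched.
Dusp1, chr17:26508520-26508722, minus strand: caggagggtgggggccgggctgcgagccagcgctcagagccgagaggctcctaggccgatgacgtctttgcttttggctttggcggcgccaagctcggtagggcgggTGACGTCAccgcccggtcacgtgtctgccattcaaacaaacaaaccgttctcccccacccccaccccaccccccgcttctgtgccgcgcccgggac
Dusp6, chr10:99262981-99263230, plus strand: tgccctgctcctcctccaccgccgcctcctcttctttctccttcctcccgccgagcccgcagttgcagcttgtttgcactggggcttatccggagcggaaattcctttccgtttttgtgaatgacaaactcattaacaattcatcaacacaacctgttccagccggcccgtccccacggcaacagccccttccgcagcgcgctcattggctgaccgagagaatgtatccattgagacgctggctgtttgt
Spry1, chr3:37639697-37639946, plus strand: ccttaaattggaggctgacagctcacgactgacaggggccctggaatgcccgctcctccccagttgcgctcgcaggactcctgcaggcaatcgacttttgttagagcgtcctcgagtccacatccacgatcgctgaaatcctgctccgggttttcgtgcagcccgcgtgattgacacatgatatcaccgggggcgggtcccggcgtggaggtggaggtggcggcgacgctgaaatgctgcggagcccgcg
Etv5, chr16:22439720-22439820, minus strand: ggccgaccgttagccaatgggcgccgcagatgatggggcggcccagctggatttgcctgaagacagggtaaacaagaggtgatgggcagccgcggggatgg

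RefSeq windows were found for 7 of the 10 members (Dusp1, Dusp5, Dusp6, Spry1, Spry2, Spred1 and Etv5), 8 windows in all since Etv5 has 2 start sites. In the 250 bases before each start, 6 motifs were searched on both strands: the cyclic AMP element (CRE, TGACGTCA), AP-1 (TGANTCA), ETS (CCGGAAGT), the interferon-stimulated response element (ISRE, GAAA, any 2 bases, then GAAA), the STAT site (GAS, TTCNNNGAA) and a kB site (GGG, any 2 bases, then TTTCC). None of these strings lies within another. Dusp1 held a CRE 143 to 136 bases before the start, a motif found in 1.55% of the 32851 windows of all genes. Dusp5 held a kB match 90 to 81 bases before the start, against 1.41% of all windows. These shares were not matched for base content. The 250 bases were 68.4% GC for Dusp1 and 64.0% GC for Dusp5, against a median of 52.4% over all windows. The AP-1, ETS, ISRE and GAS letters, present in 6.75%, 2.88%, 2.98% and 7.02% of all windows, were in none of the 8, which says only that these letters are not in these stretches. The Spry1 stretch lies wholly within exons that the annotation gives to Gm42922 on the opposite strand.

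The libraries held 5375649 to 7153480 counts. Rn45s, the ribosomal RNA precursor, took 25.8% to 28.5% of counts in IFNb-treated Adar-null cells, 21.1% to 22.9% in vehicle-treated Adar-null cells, 24.9% to 25.3% in IFNb-treated control cells and 21.5% to 22.4% in vehicle-treated control cells. With Rn45s left out of the library sizes the number of members called was the same in 4 of the 5 comparisons, and 4 in place of 3 for IFNb in control cells. The 7 melanocyte markers were all counted, with a summed level of 10432 to 11147 CPM in IFNb-treated Adar-null cells, 15254 to 15439.8 CPM in vehicle-treated Adar-null cells, 13362 to 13659.6 CPM in IFNb-treated control cells and 15641 to 16469 CPM in vehicle-treated control cells, and their part in the results was not tested. Markers of other cells were low. Leukocyte markers summed to at most 0.301 CPM, with Cd3e at 0 throughout. Endothelial markers summed to 0.633 to 1.7 CPM in IFNb-treated Adar-null cells. They summed to at most 0.178 CPM in vehicle-treated Adar-null cells, 0.178 CPM in IFNb-treated control cells and 0.495 CPM in vehicle-treated control cells. Most of this was Pecam1, with 18, 2, 2 and 5 counts in the same order of groups. Epithelial markers summed to at most 4.28 CPM, nearly all of it Cdh1, with Epcam and Krt14 at 0 throughout. The 4 fibroblast markers summed to 18.8 to 24.5 CPM in IFNb-treated Adar-null cells, 16.6 to 21.9 CPM in vehicle-treated Adar-null cells, 9.44 to 12.8 CPM in IFNb-treated control cells and 10.8 to 18.6 CPM in vehicle-treated control cells. Most of each sum was Col1a2, with means of 19.4, 16, 9.19 and 10.5 CPM in the same order. Col1a1 and Dcn were also highest in IFNb-treated Adar-null cells (1.95 and 0.126 CPM), while Pdgfra was lowest there (0.611 CPM). With IFNb, Adar itself was at 408 ± 21.2 CPM in Adar-null and 384 ± 7.47 CPM in control libraries (SD, n = 3). With vehicle it was at 59.5 ± 5.26 CPM in Adar-null and 72.2 ± 2.05 CPM in control libraries. Adar was lower in Adar-null cells with vehicle (log2 fold change -0.28 ± 0.06, edgeR adjusted p = 0.0017). Under IFNb the genotypes' difference was not called (0.09 ± 0.05, edgeR adjusted p = 0.0817). It passed there with upper-quartile scaling (edgeR adjusted p = 0.00996), library size without Rn45s (0.0322) or without Adar-null IFNb replicate 3 (0.03). The IFNb responses differed by 0.36 ± 0.08 (edgeR adjusted p = 2.93e-05). Counts over the whole gene do not show whether a small Cas9 deletion is present, and Adar exons share 1365 bases with Chrnb2 on the opposite strand.

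**Figure D1:**
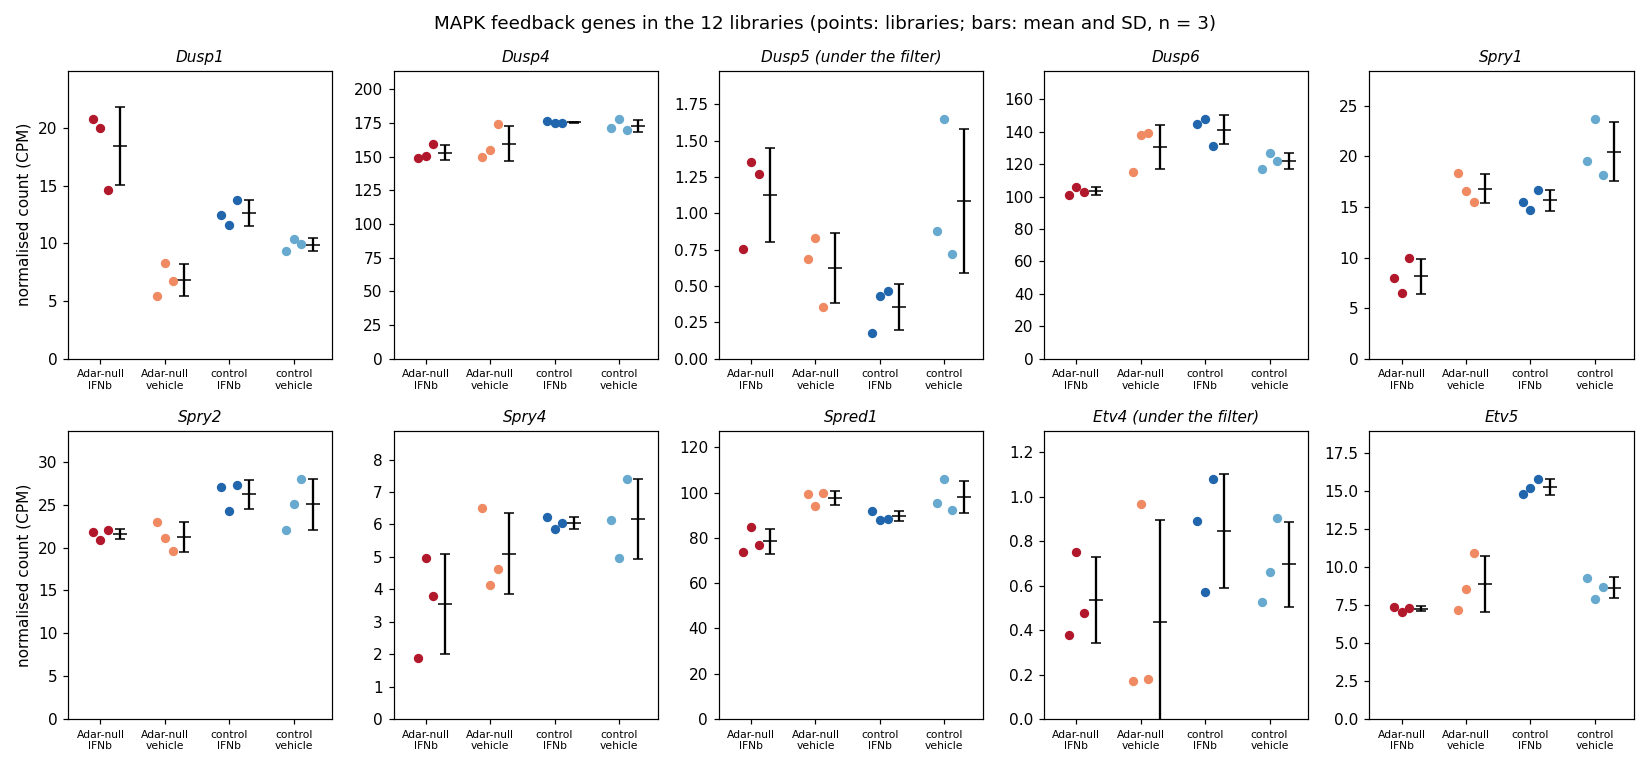
Normalised counts (CPM after TMM scaling, linear axes from 0) of the 10 members, 1 panel each. Each point is a library, with the group's mean and SD beside it (n = 3), with the SD of Etv4 in vehicle-treated Adar-null cells drawn only down to 0. Dusp1 is highest in IFNb-treated Adar-null cells (14.6 to 20.8 CPM), Spry1 is lowest there (6.46 to 9.97 CPM), and Etv5 is highest in IFNb-treated control cells (14.8 to 15.8 CPM).

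Levels are given as CPM, read counts scaled to a common library size by TMM, and between genes as CPM per kb of the longest coding transcript in GENCODE M21. Dusp4 was the most abundant member in every group, with 55.8 ± 2.0 CPM per kb in IFNb-treated Adar-null cells and 63.1 ± 1.67 CPM per kb in vehicle-treated control cells (SD, n = 3). Dusp6 came next (37.2 ± 0.959 and 43.6 ± 1.93 CPM per kb in the same groups), then Spred1 (13.0 ± 0.924 and 16.3 ± 1.16) and Spry2 (10.3 ± 0.278 and 12 ± 1.44), an order that was the same in all 4 groups. Dusp1 and Spry1 exchanged places. Dusp1 stood above Spry1 in IFNb-treated Adar-null cells (9.30 ± 1.71 against 2.93 ± 0.635 CPM per kb). Spry1 stood above Dusp1 in vehicle-treated Adar-null cells (6.06 ± 0.516 against 3.44 ± 0.704) and in vehicle-treated control cells (7.36 ± 1.07 against 4.96 ± 0.272). In IFNb-treated control cells the ranges of the mean and SD of Dusp1 (6.33 ± 0.558) and Spry1 (5.66 ± 0.364) overlapped, and in IFNb-treated Adar-null cells so did those of Dusp1 and Spry2. Etv5 (1.82 to 3.82 CPM per kb over the groups), Spry4 (0.747 to 1.30), Dusp5 (0.144 to 0.457) and Etv4 (0.183 to 0.354) were the lowest. The mean and SD of Dusp5 lay above those of Etv4 in IFNb-treated Adar-null cells and below them in IFNb-treated control cells, and overlapped them under vehicle in both genotypes. With merged exons in place of the longest transcript, Dusp1 stood below Spry1 in IFNb-treated control cells and below Etv5 in vehicle-treated Adar-null cells.

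Dusp1 encodes a nuclear phosphatase that acts on p38, JNK and ERK and is itself induced by stress and mitogens. The gene lies on chromosome 17 from 26505590 to 26562128 in GENCODE (GRCm38, minus strand, ENSMUSG00000024190.7). The upstream stretch shown above lies inside this span, since it was taken from the RefSeq start, which differs from the GENCODE gene end. It had 20.8, 20.0 and 14.6 CPM in IFNb-treated Adar-null cells, against 5.48, 8.28 and 6.77 CPM in vehicle-treated Adar-null cells. Control cells had 12.5, 11.6 and 13.8 CPM with IFNb, against 9.31, 10.4 and 9.93 CPM with vehicle. Neither pair of groups overlapped, and the highest libraries were those of IFNb-treated Adar-null cells. Over all genes tested, the IFNb and vehicle libraries did not overlap for 73.7% in Adar-null cells and 57.6% in control cells. Among the 8 tested members this held for 4 in Adar-null cells and 5 in control cells. Dusp1 rose with IFNb in Adar-null cells by a log2 fold change of 1.40 ± 0.17 (standard error; 2.64-fold; edgeR adjusted p = 6.25e-14). In control cells the change was 0.35 ± 0.16 and did not pass the test (edgeR adjusted p = 0.0581); it passed at 0.0416 without control IFNb replicate 2 and at 0.0496 with the 6 control libraries fitted alone. The difference of the responses was 1.05 ± 0.23 (edgeR adjusted p = 3.63e-05). Dusp1 exons share 11 bases with those of Ergic1 on the opposite strand, and the strand setting of the counting is not given in the sources used here.

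Dusp6 encodes a cytoplasmic phosphatase specific for ERK. The gene lies on chromosome 10 from 99263231 to 99267489 (GRCm38, plus strand, ENSMUSG00000019960.8). It had 101, 106 and 103 CPM in IFNb-treated Adar-null cells, against 115, 138 and 139 CPM in vehicle-treated Adar-null cells. For control cells the values were 145, 148 and 131 CPM with IFNb, against 117, 127 and 122 CPM with vehicle. The Adar-null libraries with IFNb were the lowest of the 12 and the control libraries with IFNb lay above their vehicle libraries. Dusp6 fell with IFNb in Adar-null cells (log2 fold change -0.34 ± 0.06, edgeR adjusted p = 1.83e-07) and rose in control cells (0.21 ± 0.06, edgeR adjusted p = 0.00094). These changes are small, 0.792-fold in Adar-null and 1.15-fold in control cells, and opposite in sign, with a difference of -0.54 ± 0.08 (edgeR adjusted p = 5.79e-09).

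Dusp4, on chromosome 8 from 34807297 to 34819894 (GRCm38, plus strand), encodes a nuclear phosphatase. Its level was 149, 150.5 and 159 CPM in IFNb-treated Adar-null cells and 149.6, 155 and 174 CPM in vehicle-treated Adar-null cells. Among control libraries it had 176, 175 and 175 CPM with IFNb and 171, 178 and 169.6 CPM with vehicle. The IFNb and vehicle groups overlapped in both genotypes, and the changes did not pass the test (-0.06 with a 95% interval of -0.16 to 0.04 in Adar-null cells, and 0.02 with an interval of -0.08 to 0.12 in control cells). With library size alone as the scaling, the change in Adar-null cells passed (-0.15, edgeR adjusted p = 0.00746). Dusp5, a nuclear phosphatase specific for ERK, was counted 21 times in IFNb-treated Adar-null cells, 12 times in vehicle-treated Adar-null cells, 7 times in IFNb-treated control cells and 19 times in vehicle-treated control cells. That is 1.15 CPM with an exact 95% Poisson interval of 0.712 to 1.76, 0.642 (0.332 to 1.12), 0.367 (0.148 to 0.757) and 1.10 CPM (0.662 to 1.72), and these intervals cover counting error only. It was too low for the filter and so was not tested; with no filter the difference of its responses passed the test (log2 fold change 2.35, edgeR adjusted p = 0.0225), on 1 to 10 counts per library. Under IFNb its difference between genotypes also passed with no filter (1.59, edgeR adjusted p = 0.0314). Dusp5 exons share 547 bases with the antisense gene AC137853.2.

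The Sprouty proteins are inhibitors that ERK signalling induces and that act back on receptor and RAS signalling. Spry1 lies on chromosome 3 from 37639947 to 37644598 (GRCm38, plus strand, ENSMUSG00000037211.12), and it fell in both genotypes. It had 7.95, 6.46 and 9.97 CPM in IFNb-treated Adar-null cells, against 18.3, 16.6 and 15.5 CPM in vehicle-treated Adar-null cells. Control cells had 15.5, 14.7 and 16.7 CPM with IFNb, against 19.5, 23.7 and 18.1 CPM with vehicle. The groups did not overlap in either genotype, and all 3 Adar-null libraries with IFNb lay below every other library. Spry1 fell with IFNb in Adar-null cells (log2 fold change -1.05 ± 0.16, 0.483-fold, edgeR adjusted p = 1.36e-09) and in control cells (-0.39 ± 0.13, 0.763-fold, edgeR adjusted p = 0.00733). The fall in control cells was lost without control vehicle replicate 2, which had the highest value (-0.26, edgeR adjusted p = 0.129). The responses differed by -0.66 ± 0.20 (edgeR adjusted p = 0.00338). Spry1 exons share 710 bases with Gm42922 on the opposite strand, so reads of the pair cannot be told apart if strand was not used.

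Spry2 and Spry4 did not pass the test for IFNb in either genotype. Spry2 had 21.8, 20.9 and 22.0 CPM in IFNb-treated Adar-null cells and 23.0, 21.1 and 19.6 CPM in vehicle-treated Adar-null cells. For control cells the values were 27.1, 24.3 and 27.3 CPM with IFNb and 22.0, 25.1 and 28.0 CPM with vehicle. These groups overlapped within each genotype, with changes of 0.02 (95% interval -0.20 to 0.24) in Adar-null and 0.07 (-0.15 to 0.28) in control cells. Spry4 was low, with 1.89, 4.96 and 3.80 CPM in IFNb-treated Adar-null cells, 6.51, 4.14 and 4.64 CPM in vehicle-treated Adar-null cells, 6.23, 5.86 and 6.04 CPM in IFNb-treated control cells and 6.15, 4.95 and 7.40 CPM in vehicle-treated control cells. The Spry4 groups overlapped within each genotype. In control cells its change was -0.02 (95% interval -0.46 to 0.41). Its change in Adar-null cells was -0.46 ± 0.26 (edgeR adjusted p = 0.0993), and it passed without Adar-null IFNb replicate 2 (-0.79, edgeR adjusted p = 0.0174) or Adar-null vehicle replicate 2 (-0.61, edgeR adjusted p = 0.0497).

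Spred1 encodes a Sprouty-related protein that brings neurofibromin to RAS at the membrane. It had 73.9, 84.6 and 76.9 CPM in IFNb-treated Adar-null cells, against 99.2, 93.9 and 99.7 CPM in vehicle-treated Adar-null cells. In control cells it had 92.0, 88.1 and 88.3 CPM with IFNb, against 95.6, 106 and 92.3 CPM with vehicle. The IFNb and vehicle libraries did not overlap in either genotype, which held for 73.7% of all genes tested in Adar-null and 57.6% in control cells. Spred1 fell with IFNb in Adar-null cells (-0.31 ± 0.06, 0.808-fold, edgeR adjusted p = 4.51e-06). In control cells the change was -0.13 ± 0.06 (edgeR adjusted p = 0.055) and it passed with upper-quartile scaling (0.0168), with library size alone (0.00321), with library size without Rn45s (0.0338) and without control IFNb replicate 1 (0.0478) or control vehicle replicate 3 (0.022). The difference of the responses did not pass (-0.17 ± 0.09, edgeR adjusted p = 0.0723), although it passed when any 1 of the 4 libraries numbered 2 was left out (0.0167 to 0.0493).

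Etv5 encodes an ETS factor of the PEA3 subfamily, whose genes are targets of fibroblast growth factor and ERK signalling. It lies on chromosome 16 from 22381309 to 22439719 (GRCm38, minus strand, ENSMUSG00000013089.15). It had 7.39, 7.07 and 7.28 CPM in IFNb-treated Adar-null cells and 7.20, 8.56 and 10.9 CPM in vehicle-treated Adar-null cells. In control cells it had 14.8, 15.2 and 15.8 CPM with IFNb, against 9.31, 7.92 and 8.67 CPM with vehicle. The control libraries with IFNb stood above all others, while the Adar-null groups overlapped. Etv5 rose with IFNb in control cells (0.82 ± 0.16, 1.77-fold, edgeR adjusted p = 3.37e-06), and its change in Adar-null cells did not pass (-0.29 ± 0.18, edgeR adjusted p = 0.144). The responses differed by -1.11 ± 0.24 (edgeR adjusted p = 3.03e-05). Etv4, another PEA3 factor gene, had 10, 9, 16 and 12 counts in IFNb-treated Adar-null cells, vehicle-treated Adar-null cells, IFNb-treated control cells and vehicle-treated control cells, with 1 to 7 per library. That is 0.548 CPM with an exact 95% Poisson interval of 0.263 to 1.01, 0.482 (0.22 to 0.914), 0.839 (0.48 to 1.36) and 0.694 CPM (0.359 to 1.21) in the same order. It did not pass the filter, and with no filter none of its 5 comparisons passed the test (edgeR adjusted p of 0.452 to 1).

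**Figure D2:**
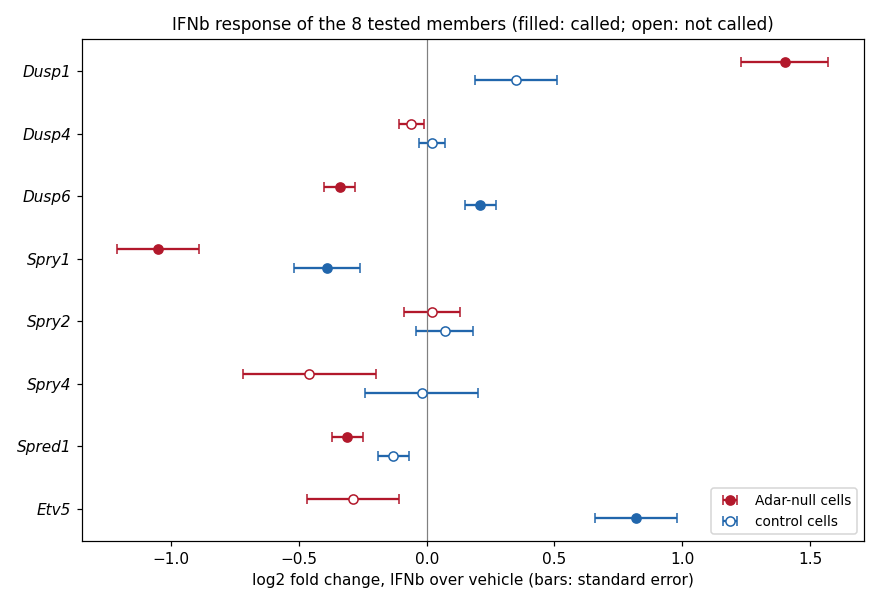
Log2 fold change of IFNb over vehicle for the 8 tested members in Adar-null cells (red, upper of each pair) and control cells (blue, lower); bars are standard errors, filled points are called at an adjusted p under 0.05 and open points are not. Dusp1 lies at 1.40 in Adar-null and 0.35 in control cells, Etv5 at -0.29 in Adar-null and 0.82 in control cells, and Dusp6 on opposite sides of 0.

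The comparison of IFNb with vehicle asks which genes answer the cytokine within a genotype. In Adar-null cells 1 of the 8 tested members rose (Dusp1) and 3 fell (Dusp6, Spry1 and Spred1), while over all 11561 genes tested 36.6% rose and 35.7% fell. The members' median log2 fold change was -0.30, against 0.01 over all genes, and their median size was 0.32, against 0.47. In control cells 2 members rose (Dusp6 and Etv5) and 1 fell (Spry1), where 26.5% of all genes rose and 26.5% fell (3067 and 3066 genes, or 2469 and 3796 with library size alone as the scaling). The median there was 0.04 against 0 over all genes, and the median size 0.17 against 0.27. The difference of the responses was called for 4 members, 1 higher (Dusp1) and 3 lower (Dusp6, Spry1 and Etv5) in Adar-null cells, where 28.6% of all genes were called higher and 30.7% lower. The median difference was -0.31, against 0.01 over all genes, and the median size 0.49, against 0.46. It was not called for Dusp4 (95% interval -0.22 to 0.06), Spry2 (-0.35 to 0.26), Spry4 (-1.11 to 0.23) or Spred1 (-0.34 to -0.01).

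With vehicle, the comparison of Adar-null with control cells asks how the genotypes differ without IFNb, after 36 h of vehicle. By edgeR none of the 8 tested members was called, where 6.51% of all genes were; 4 had an unadjusted p under 0.05, and the DESeq2 Wald test and limma-voom also called 0. The members' median log2 fold change was -0.18, against 0 over all genes, and their median size was 0.18, against 0.10. Dusp1 had the largest difference, -0.51 ± 0.18 (edgeR adjusted p = 0.0743), with its 3 Adar-null libraries (5.48 to 8.28 CPM) below its 3 control libraries (9.31 to 10.4 CPM). It passed without Adar-null vehicle replicate 2 (-0.69, edgeR adjusted p = 0.0444). Dusp4 (-0.12 ± 0.05, edgeR adjusted p = 0.151) passed without Adar-null vehicle replicate 3 (-0.18, edgeR adjusted p = 0.0273). Spry1 (-0.29, 95% interval -0.54 to -0.04) and Spry2 (-0.23, -0.45 to -0.01) were not called, though their intervals left out 0. The 95% intervals of Dusp6, Spry4, Spred1 and Etv5 held 0 and ran from -0.74 to 0.38.

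Under IFNb, all 8 tested members were called between the genotypes. Dusp1 was higher in Adar-null cells (0.54 ± 0.14, 1.46-fold, edgeR adjusted p = 0.000302), and 7 were lower, where 36.4% of all genes were higher and 36.2% lower. The members' median was -0.36, against 0.02 over all genes, and their median size was 0.49, against 0.46. Etv5 (-1.08 ± 0.17, 0.475-fold) and Spry1 (-0.95 ± 0.16, 0.519-fold) were furthest down, followed by Spry4 (-0.72 ± 0.25), Dusp6 (-0.44 ± 0.06), Spry2 (-0.28 ± 0.11), Dusp4 (-0.20 ± 0.05) and Spred1 (-0.18 ± 0.06). The IFNb libraries of the genotypes did not overlap for any of the 8, nor for 74% of all genes tested, and for Dusp1 the lowest Adar-null library had 14.6 CPM and the highest control library had 13.8 CPM. The call of Spry4 was lost without Adar-null IFNb replicate 1, which held 10 counts (-0.47, edgeR adjusted p = 0.0938). The call of Spry2 was lost without Adar-null IFNb replicate 2 or control IFNb replicate 3 (edgeR adjusted p = 0.0509 and 0.0649) and with the DESeq2 Wald test (adjusted p = 0.0626). For Dusp4, Spry2, Spry4 and Spred1 the difference of responses was not called. A call under IFNb and none with vehicle therefore does not show that these members diverged with IFNb. Their vehicle and IFNb differences were -0.12 and -0.20 (Dusp4), -0.23 and -0.28 (Spry2), -0.28 and -0.72 (Spry4), and -0.01 and -0.18 (Spred1). The 5 comparisons share libraries, so their values for a member are not independent of each other.

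**Figure D3:**
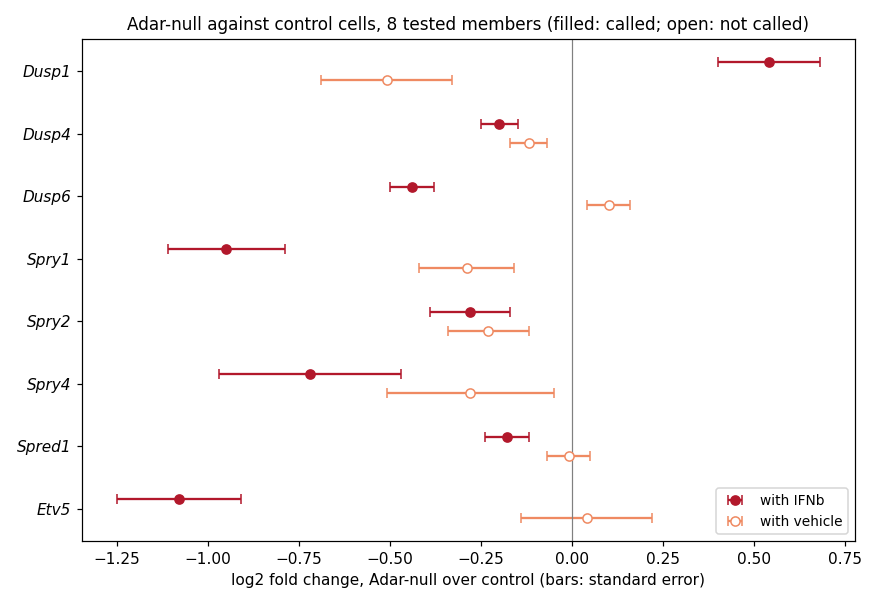
Log2 fold change of Adar-null over control cells for the 8 tested members with IFNb (dark red, upper of each pair) and with vehicle (orange, lower); bars are standard errors, filled points are called at an adjusted p under 0.05 and open points are not. All 8 points with IFNb are filled, from -1.08 (Etv5) to 0.54 (Dusp1), and all points with vehicle are open, from -0.51 to 0.10.

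Members were also set side by side by profile, as the root mean square difference between log2(CPM + 1) values centred on each gene's mean over the 12 libraries, a description with no test. The closest pairs were Dusp4 with Spred1 (0.129), with Dusp6 (0.133) and with Spry2 (0.134), and the most distant was Dusp1 with Spry1 (0.930). Profiles were centred but not scaled, so genes that change little lie close together. A small distance therefore need not mean a shared response: Dusp6 was called in opposite directions with IFNb, and Dusp4 was not called. Among 11553 other tested genes, the profiles nearest to Dusp6 were those of Sh3pxd2a (0.0654) and Ptch1 (0.0739). Those nearest to Etv5 were Frk (0.109) and Cdr2l (0.117). Those nearest to Dusp1 were B230312A22Rik (0.158) and Usp53 (0.170). Cdr2l averaged 99.9 CPM in IFNb-treated Adar-null cells, 119 CPM in vehicle-treated Adar-null cells, 201 CPM in IFNb-treated control cells and 121 CPM in vehicle-treated control cells. Etv5 had the same order of group means except that its vehicle-treated groups stood the other way round.

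The wider pathway was described with 5 lists of genes, and each change of a named gene called a rise or fall below had an edgeR adjusted p of at most 0.0341. The counts of each list stand beside the shares over all 11561 genes tested. In Adar-null cells 36.6% of all genes rose and 35.7% fell, and in control cells 26.5% rose and 26.5% fell. No list was tested against these shares. Of 6 other MAP kinase phosphatase genes 5 were tested, and with IFNb 3 rose and 2 fell in Adar-null cells and 2 rose and 2 fell in control cells. Dusp8, a phosphatase of JNK and p38, had 112, 118 and 112 CPM in IFNb-treated Adar-null cells, against 31.0, 29.3 and 32.1 CPM in vehicle-treated Adar-null cells, and 25.5, 23.2 and 26 CPM in IFNb-treated control cells, against 31.3, 34.5 and 38.6 CPM in vehicle-treated control cells. It rose in Adar-null cells (1.90 ± 0.08) and fell in control cells (-0.49 ± 0.10). Dusp16, which also acts on JNK and p38, rose by 1.79 ± 0.06 in Adar-null and 0.38 ± 0.07 in control cells. Dusp7, a cytoplasmic phosphatase of ERK like Dusp6, fell in Adar-null cells (-0.82 ± 0.08, with 36.6 ± 1.84 CPM with IFNb and 64.6 ± 3.39 CPM with vehicle), and its change in control cells did not pass (0.11 ± 0.07), although it passed without control IFNb replicate 2 (0.18, edgeR adjusted p = 0.0491).

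Of 12 further inhibitors of receptor and RAS signalling 11 were tested, and with IFNb 3 rose and 4 fell in Adar-null cells and 3 rose and 1 fell in control cells. Spred2, the paralogue of Spred1, had 14.4, 14.4 and 13.3 CPM in IFNb-treated Adar-null cells, against 31.7, 30.8 and 26 CPM in vehicle-treated Adar-null cells, and 40.9, 38.5 and 41.1 CPM in IFNb-treated control cells, against 27.8, 26.9 and 26.5 CPM in vehicle-treated control cells. Spred2 fell in Adar-null cells (-1.08 ± 0.12) and rose in control cells (0.57 ± 0.10), opposite directions like those of Dusp6. Pebp1, the RAF kinase inhibitor protein, fell in Adar-null cells (-0.88 ± 0.08), and its change in control cells was -0.13 ± 0.07 and did not pass. It passed there with upper-quartile scaling (-0.16, edgeR adjusted p = 0.0484) and with library size alone (-0.21, edgeR adjusted p = 0.0103). Rasa2, a GTPase-activating protein of RAS, rose in control cells (0.49 ± 0.08), and its change in Adar-null cells was 0.03 ± 0.09 and did not pass.

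Of 14 genes that ERK drives early or late 12 were tested, and with IFNb 8 rose and 3 fell in Adar-null cells and 8 rose and 1 fell in control cells. Ccnd1, which encodes cyclin D1, had 40.7, 40.3 and 47.6 CPM in IFNb-treated Adar-null cells, against 89.1, 97.3 and 88.2 CPM in vehicle-treated Adar-null cells, and 334, 335 and 347 CPM in IFNb-treated control cells, against 95.9, 102 and 99.3 CPM in vehicle-treated control cells. It fell in Adar-null cells (-1.10 ± 0.07) and rose in control cells (1.77 ± 0.05). Myc fell in Adar-null cells (-0.96 ± 0.06) and did not pass in control cells (-0.11 ± 0.06), where it passed with upper-quartile scaling (-0.14, edgeR adjusted p = 0.0274) and with library size alone (-0.18, edgeR adjusted p = 0.00386). Ier2, an immediate early gene, rose in Adar-null cells (0.73 ± 0.07) and fell in control cells (-0.23 ± 0.08), a fall that was lost without control vehicle replicate 1 (-0.15, edgeR adjusted p = 0.142). Etv1, the remaining PEA3 factor gene, was picked after its values were seen. It had 2, 5 and 3 counts in IFNb-treated Adar-null cells, against 30, 42 and 23 in vehicle-treated Adar-null cells, and 36, 40 and 42 in IFNb-treated control cells, against 28, 26 and 30 in vehicle-treated control cells. It fell in Adar-null cells (-3.16 ± 0.50) and did not pass in control cells (0.35 ± 0.23).

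Of 27 genes of the chain from receptors to ERK 25 were tested, and with IFNb 8 rose and 10 fell in Adar-null cells and 7 rose and 10 fell in control cells. Met, the hepatocyte growth factor receptor, had 734, 651 and 682 CPM in IFNb-treated Adar-null cells, against 2019, 1943 and 2019 CPM in vehicle-treated Adar-null cells (-1.53 ± 0.04). In control cells it fell by less (-0.25 ± 0.04, difference of responses -1.28 ± 0.05). Erbb3, a receptor of neuregulin, rose in both (1.26 ± 0.05 in Adar-null and 0.29 ± 0.05 in control cells). Mapk3, which encodes ERK1, fell in Adar-null cells (-0.82 ± 0.07) and rose slightly in control cells (0.15 ± 0.06), a rise that was lost under 3 other scalings and without any 1 of 3 control libraries (edgeR adjusted p of up to 0.358, DESeq2 adjusted p = 0.0998).

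All 19 genes of the p38 and JNK chains were tested, and with IFNb 6 rose and 10 fell in Adar-null cells and 6 rose and 6 fell in control cells. Mapk14, which encodes p38 alpha, fell in Adar-null cells (-0.24 ± 0.05) and rose in control cells (0.36 ± 0.05). Map2k6, a kinase that activates p38, had 1.33, 1.5 and 1.58 CPM in IFNb-treated Adar-null cells, against 11.3, 13.5 and 13.2 CPM in vehicle-treated Adar-null cells (-3.09 ± 0.30), and it fell by less in control cells (-0.55 ± 0.17, difference of responses -2.54 ± 0.34). Mapkapk3, a kinase downstream of p38, rose in both (1.92 ± 0.09 in Adar-null and 0.76 ± 0.11 in control cells). Gadd45g, a stress-induced activator of the p38 and JNK chains, was picked after its values were seen. It had 151, 214 and 194 counts in IFNb-treated Adar-null cells, against 3, 1 and 1 in vehicle-treated Adar-null cells, a ratio of 114 with an exact 95% counting interval of 48.8 to 354. That interval covers counting error only, not the spread among libraries or the picking. In control cells Gadd45g had 15, 29 and 28 counts with IFNb, against 2, 3 and 6 with vehicle. It rose in both genotypes (6.73 ± 0.66 in Adar-null and 2.53 ± 0.48 in control cells). The genes named from these lists, other than Etv1 and Gadd45g, were those with the smallest p for the difference of the responses in each list, so their size is not typical of the lists, whose median log2 fold changes in Adar-null cells were 1.79, 0.03, 0.68, -0.06 and -0.17 in the order given, against 0.01 over all genes.

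**Figure D4:**
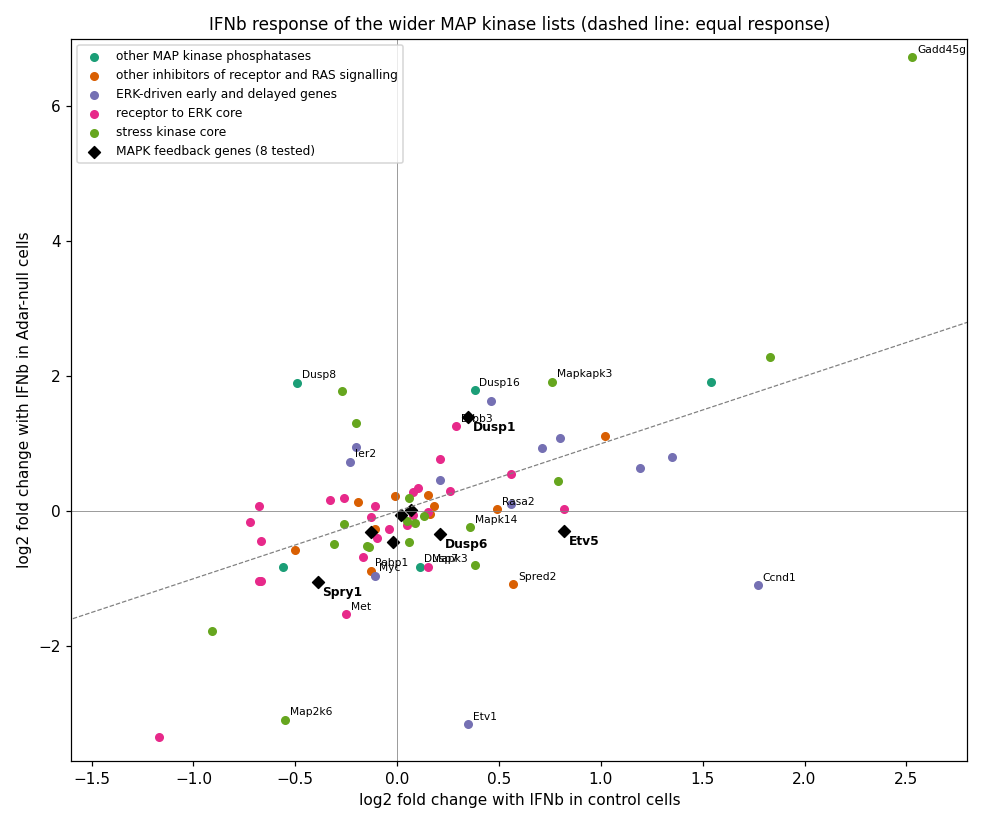
Log2 fold change with IFNb in Adar-null cells (vertical axis) against control cells (horizontal axis) for the tested genes of the 5 wider lists (coloured points) and the 8 tested members (black diamonds); the dashed line marks an equal response, and the axes differ in scale. Ccnd1 (-1.10 in Adar-null and 1.77 in control cells), Spred2 and Etv5 lie right and below, and Dusp8 and Dusp1 lie above the line.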

How the data were processed

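Libraries were directional and made after removal of ribosomal RNA, per the labels' protocols. The submitters' processing notes name HTSeq 0.6.1p1, Bowtie2 2.2.4, Trimmomatic 0.33, bcl2fastq 2.19.1, DESeq2 and build mm10. What each did, the annotation and the use of strand are not given in the sources used. The authors deposited raw counts of reads per gene symbol, not normalised. From them, genes were filtered with filterByExpr by group (minimum count 10), which left 11561 genes and 8 of the 10 members. Libraries were scaled by TMM, and the quasi-likelihood test of edgeR 4.0.16 (R 4.3.3, robust fit) was run on all 12 libraries with 1 term per group. Calls were made at a Benjamini-Hochberg adjusted p under 0.05 over all genes tested. Errors are SDs over 3 libraries for CPM and Wald standard errors for log2 fold changes, with normal 95% intervals. The variance behind these standard errors was not let below that of Poisson counting. The edgeR p-values come from the quasi-likelihood test, so they need not match the intervals. Replicates of a group differed beyond sampling noise (chi-square per degree of freedom 1.47 to 3.28). Rose, fell, higher and lower, where written of a change with IFNb, mark such calls. Scripts were tested on simulated data. DESeq2 1.42.0, limma 3.58.1 and other scalings were alternatives. Each of the 5 wider lists gave the 3 genes with the smallest interaction p as named genes, and the 3 members with the smallest interaction p gave 2 nearest profiles each. The members and lists were chosen with earlier results of these data known. The interferon-gamma arm of the study was not analysed here. Hras was found in the table under the older symbol Hras1.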

Additional observations from a re-analysis of the deposited data

Results flagged for a closer look

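The response to IFNb differed between Adar-null and control cells, by a test of the difference itself (edgeR, adjusted over all genes tested), for 4 members. Dusp1 rose in Adar-null cells and did not pass in control cells, with a difference of 1.05 on the log2 scale (adjusted p = 3.63e-05). Adar-null less control cells, it stood at -0.51 ± 0.18 with vehicle, which was not called, and at 0.54 ± 0.14 with IFNb. Dusp6 moved in opposite directions, with a difference of -0.54 (adjusted p = 5.79e-09). Spry1 fell further in Adar-null cells, with a difference of -0.66 (adjusted p = 0.00338). Etv5 rose in control cells and did not pass in Adar-null cells, with a difference of -1.11 (adjusted p = 3.03e-05). Each of these 4 differences of responses kept its direction and its call under every scaling, filter and test tried and without any 1 library. The exception was the test against a 1.5-fold change, where Dusp6 and Spry1 did not pass.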

How the results depend on the processing

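Of 872 values of the 8 tested members under the alternatives, 823 kept their direction and their side of the threshold. Tested against a 1.5-fold change, 2 members were called for IFNb in Adar-null cells, 0 in control cells, 2 between genotypes under IFNb and 2 for the difference of responses, and all genes called were 3301, 980, 3306 and 2592, with 17 between genotypes under vehicle. Under vehicle the DESeq2 Wald test called 324 genes, against 753 by edgeR, and leaving out 1 library gave 308 to 801 genes and 0 to 1 members. Signs that reversed belonged to changes near 0 that had not passed the test: with library size alone Spry2 was -0.07 in Adar-null and -0.01 in control cells, Dusp4 -0.05 in control cells and Rasa2 -0.06 in Adar-null cells, and with upper-quartile scaling Dusp4 was -0.01 in control cells. Leaving out 1 library, the response ran from -0.03 to 0.07 for Spry2 and -0.11 to 0.12 for Rasa2 in Adar-null cells, and from -0.02 to 0.15 for Spry2 and -0.17 to 0.12 for Spry4 in control cells; the vehicle difference ran from -0.05 to 0.05 for Spred1 and -0.12 to 0.15 for Etv5, and the difference of responses from -0.13 to 0.04 for Spry2. The cause of these changes was not tested. Replicate numbers left no visible pairing in the counts, which cannot show whether same-number libraries were handled together. Same-number libraries of different groups had deviations correlated at -0.0942 to 0.0546, none of 18 pairs over 0.1. Libraries of other numbers had -0.109 to 0.0999, and 4 of 12 libraries correlated best with their own number. With the replicate block the members called were 4, 3, 0, 8 and 4, as without it, and 711 genes were called under vehicle. Depth limits Dusp5 and Etv4, with 1 to 10 counts per library.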
